A study of Mus musculus with 3 samples.

Results

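Ubiquitin-specific protease (Usp) transcripts were followed through a list of predicted N6-methyladenosine (m6A) sites from RAW264.7 cells. Every protein-coding gene of GENCODE M21 (GRCm38) whose name is Usp followed by a number was taken, which gave 56 of 21951 protein-coding genes. Of these, 25 (44.6%, 95% Wilson interval 32.4 to 57.6) held at least 1 listed site, while 23.1% of all protein-coding genes did. The 25 genes held 94 sites, or 0.490% of the 19180 listed sites in protein-coding genes. Another 3 genes with a Usp name, Usp46os1, Usp46os2 and Usp17le-ps, are not annotated as protein-coding and were not counted. Usp6nl carries the name for its likeness to USP6 and is a GTPase-activating protein, not a protease. Without it, 24 genes and 93 sites remained.

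RAW264.7 is an established mouse macrophage line, and the cells were left untreated, with no second condition. The series text calls the line human, but the organism label says mouse and every listed position was an A in the mouse genome. Poly(A)+ RNA of 3 replicates was profiled by miCLIP2, in which an m6A antibody is crosslinked to RNA by UV light and reverse transcription truncates beside the crosslinked base. The authors deposited 1 list pooled over the replicates, in which each of 19301 positions has an m6Aboost score above 0.5 as its only value. The score is the output of a machine learning model and not a methylation level. Neither read counts nor replicate values are part of it, which leaves the depth of each site and the variation among the replicates unknown. The intervals given for shares cover counting error only, and sites of 1 transcript are not replicates.

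Ubiquitin-specific proteases are cysteine proteases that remove ubiquitin from proteins or trim ubiquitin chains, and so oppose the ubiquitin ligases. They form the largest family of deubiquitinases, with members in DNA repair, chromatin regulation, endosomal sorting, ribosome surveillance and, in macrophages, signalling below pattern recognition and cytokine receptors. m6A is written on mRNA mostly within the DRACH motif (D is A, G or T, R is A or G, and H is A, C or T), is concentrated around stop codons and in long exons, and is read by proteins that affect mRNA decay, translation and splicing.

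The 10 sites with the highest score are shown first, since they are the calls the model made most firmly among Usp transcripts. Each line gives the 21 genomic bases around the site, 5′ to 3′ on the strand of the gene (GRCm38), with the 5 bases centred on the predicted m6A in capitals.
Usp10 3′UTR, chr8:119956934-119956954, plus strand, score 0.956: cagaagctGGACTgttgcctg
Usp25 3′UTR, chr16:77115584-77115604, plus strand, score 0.953: caccatagAAACTctgttctc
Usp15 3′UTR, chr10:123113468-123113488, minus strand, score 0.943: cataggagAGACTttcctgct
Usp8 CDS, chr2:126742320-126742340, plus strand, score 0.932: aggagaagGAACTttgggaca
Usp9x CDS, chrX:13156244-13156264, plus strand, score 0.932: caaaatacAGACTtgtgggtg
Usp25 CDS, chr16:77115489-77115509, plus strand, score 0.929: ctgcgcacGAACTctgtgagc
Usp21 CDS, chr1:171286745-171286765, minus strand, score 0.923: ggctcaagAAACTggagctgg
Usp47 3′UTR, chr7:112110226-112110246, plus strand, score 0.917: cactgattGGACTgcccttca
Usp36 CDS, chr11:118264993-118265013, minus strand, score 0.911: atccccagAGACTgggcatcg
Usp47 CDS, chr7:112092959-112092979, plus strand, score 0.904: gcactgaaAAACTgaaaagct
These 10 sites lay in 8 genes. All 10 were in DRACH motifs, 6 were in coding sequence and 4 in a 3′UTR, and Usp25 and Usp47 each held a pair of them.

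The next 3 windows are shown because the site touches or nearly touches the start or the stop codon.
Usp12 CDS, chr5:146737673-146737693, minus strand, score 0.525: cagtctcgGGACTgagaggag
Usp4 CDS, chr9:108391817-108391837, plus strand, score 0.859: tacaacatGGACAccaactga
Usp38 CDS, chr8:81014422-81014442, minus strand, score 0.580: gcgacgatGGACAagattctg
In Usp12, which works with the WD40 protein WDR48, the predicted m6A was the middle base of the last codon, residue 370, 2 nt before the stop codon. In Usp4, a regulator of TGF-beta and NF-kB signalling, the site was in the codon for residue 960 of 962, 8 nt before the stop codon. In Usp38, a regulator of the antiviral kinase TBK1, the site was in codon 2, directly after the start codon. Their scores differed: 0.859 in Usp4, 0.525 in Usp12 and 0.580 in Usp38.

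Most sites of Usp transcripts were in coding sequence. On the transcript with the longest CDS of each gene, all 94 sites were exonic, 61 in the CDS (64.9%, 54.8 to 73.8) and 33 in the 3′UTR (35.1%, 26.2 to 45.2). Over all exonic sites in protein-coding genes placed the same way, the CDS held 53.1% and the 3′UTR 44.6%. Of the 2919 DRACH motifs in Usp genes with a site, 1941 were in the CDS, against 203043 of 373985 over all genes with a site. In Usp genes, 2.94% (2.27 to 3.79) of the CDS motifs and 3.29% (2.32 to 4.66) of the 3′UTR motifs were listed. Over all genes with a site, 4.55% and 4.99% were. No Usp site was in a 5′UTR (0 of 94, which allows a share of up to 3.19% when the limit is set at 3 counts of the total, or 3.93% as the upper Wilson bound), against 2.29% of all exonic sites. CDS sites alone were found in 13 genes, 3′UTR sites alone in 5 (Usp2, Usp19, Usp22, Usp24 and Usp48), and both in 7. In 6 genes the placement depended on the transcript. When the transcript with the longest genomic span was taken among those with a support level of at most 3 and an annotation level of at most 2, 16 sites fell outside its exons, in Usp19, Usp24, Usp31, Usp34, Usp36 and Usp42, and the other 8 sites of Usp36 fell in a noncoding transcript. Of the 78 sites that were then exonic, 45 (57.7%) were in the CDS and 25 in a 3′UTR. The total includes the 8 sites in the noncoding transcript, which has no CDS.

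**Figure D1:**
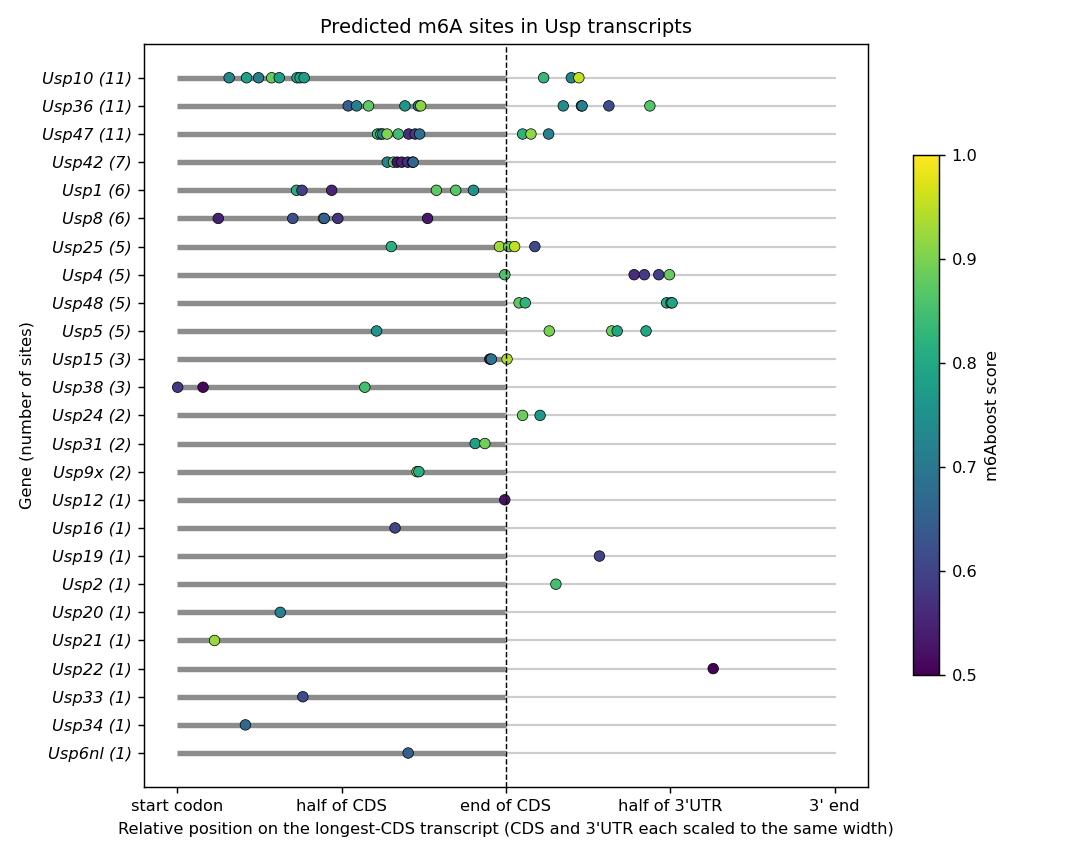
Position of the 94 predicted m6A sites in the 25 Usp genes with a site, ordered by number of sites (in brackets). Each point is 1 site, coloured by m6Aboost score; the thick line is the CDS and the thin line the 3′UTR of the transcript with the longest CDS, each scaled to the same width, and the dashed line is the end of the CDS. Usp10, Usp36, Usp47 and Usp42 show groups of sites inside the CDS, and Usp5, Usp48 and Usp24 have theirs mainly or wholly after it.

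Coding sites of Usp transcripts lay mostly in internal exons. Of the 61 CDS sites, 48 (78.7%, 66.9 to 87.1) were in internal exons, against 49.1% (48.1 to 50.1) of the CDS sites of all genes. Only 11 (18.0%, 10.4 to 29.5) were in the last exon, against 45.1% (44.1 to 46.1). The remaining 2 were in exon 1 of Usp38. These shares were not adjusted for the DRACH motifs in each kind of exon. In Usp genes with a site, 176 of 1941 coding motifs were in the last exon, against 32625 of 203043 over all genes with a site. For the list of other deubiquitinases described below, 31.1% (19.5 to 45.7) of 45 CDS sites were in internal exons, an interval that did not meet that of the Usp sites. These sites cluster in few genes, so the intervals are narrower than the spread between genes would give. The differences were not tested.

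Within internal exons, sites gathered in the long ones. An exon of at least 400 nt held 43 of the 48 sites (89.6%, 77.8 to 95.5), against 72.5% over all genes, and the median exon length was 768 nt against 699 nt. Without the genes whose placement depended on the transcript, 29 of 34 internal CDS sites (85.3%) were in such exons. In 40 of 48 cases (83.3%, 70.4 to 91.3) the exon was the longest internal exon of its transcript, against 72.7% over all genes, although these longest exons made up only 16.9% of the internal exon bases of the 25 genes. Long exons also hold many motifs, so the sites were set against the DRACH motifs available. In the CDS of Usp genes with a site, 12.2% (9.04 to 16.2) of 320 DRACH motifs in internal exons of at least 400 nt were listed, while 1.23% (0.419 to 3.55) of 244 were in exons of 200 to under 400 nt and 0.171% (0.0469 to 0.621) of 1170 in exons under 200 nt. The same order was seen over all genes with a site, at 10.4%, 2.36% and 0.606%. In the last exon, 6.25% (3.53 to 10.8) of 176 coding DRACH motifs of Usp genes were listed, against 12.8% over all genes.

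**Figure D2:**
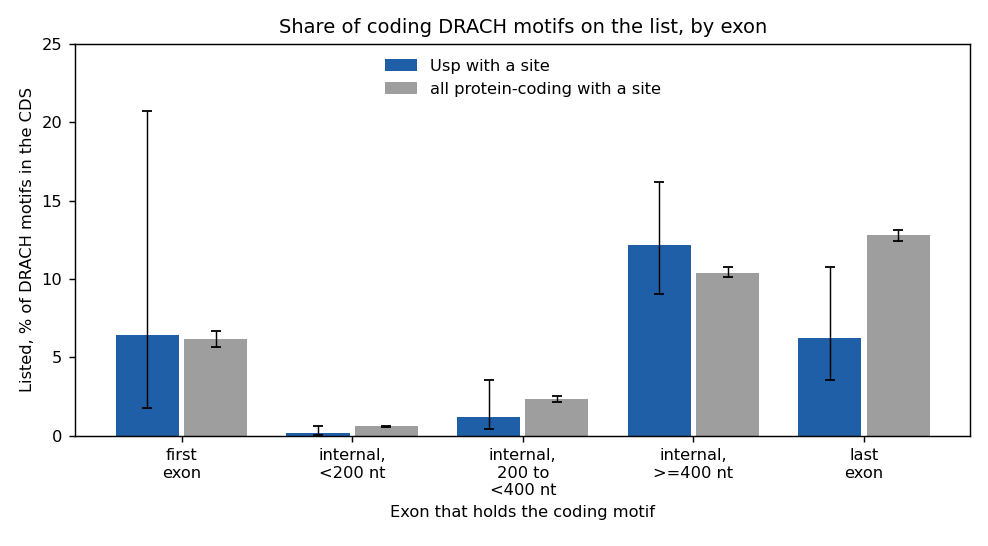
Percentage of DRACH motifs in the CDS that are on the list, by the exon that holds them, for the 25 Usp genes with a site (blue) and all protein-coding genes with a site (grey). Bars start at 0 and error bars are 95% Wilson intervals. Usp transcripts reach 12.2% in internal exons of at least 400 nt and 0.171% in those under 200 nt, and lie below all genes in last exons.

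A long internal exon did not always hold a site. Of 23 Usp genes with an internal exon of at least 400 nt, 14 had a site (60.9%, 40.8 to 77.8) and 13 had a CDS site in such an exon. Of the 33 other members, 11 had a site (33.3%, 19.8 to 50.4). Over all protein-coding genes, whatever their exons, 23.1% had a site. The intervals of both groups of members overlapped, and the split was not tested. Usp44 (longest internal exon 1504 nt), Usp54 (1397 nt), Usp49 (1375 nt) and Usp35 (1273 nt) were among the members with an internal exon of at least 400 nt but no site. The list gives no expression, so a transcript that was absent and one that was present without a call cannot be told apart.

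**Figure D3:**
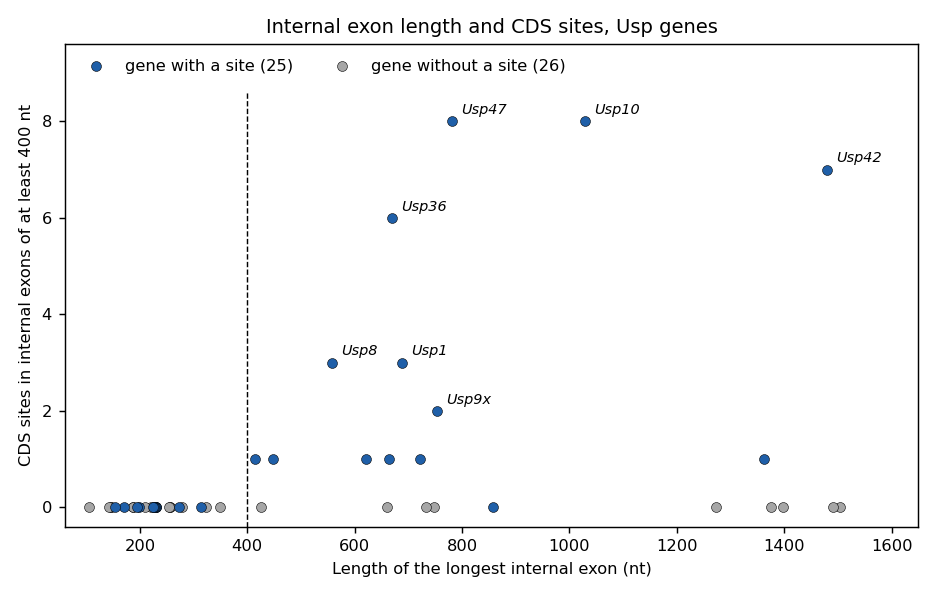
Length of the longest internal exon (nt, x axis) against the number of CDS sites in internal exons of at least 400 nt (y axis), with 1 point per gene for the 51 Usp genes that have an internal exon. Blue points are genes with any listed site and grey points genes without one, and the dashed line is at 400 nt. Usp10 and Usp47 reach 8 sites, and several genes with longer exons have 0.

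On the list as deposited, sites near the stop codon were a smaller part of Usp sites than of all sites. Counted on the spliced transcript from the first base of the stop codon, 21 of 94 sites lay within 200 nt (22.3%, 15.1 to 31.8), against 32.3% over all genes. At a minimum score of 0.7 the shares were 27.1% (17.4 to 39.6) of 59 sites and 35.8% over all genes, and at 0.9 they were 50.0% (23.7 to 76.3), or 5 of 10 sites, and 40.9%. With 10 sites the share at 0.9 is too imprecise to give a direction. On the list as deposited the gap was mostly on the coding side, where 5 Usp sites (5.32%, 2.29 to 11.9) lay in the 200 nt before the stop codon, against 12.1%. On the other side, 16 sites (17.0%, 10.8 to 25.9) lay in the 200 nt from the stop codon on, against 20.2%. These shares were not adjusted for motifs. Usp genes with a site had 222 of 2919 DRACH motifs within 200 nt of the stop codon, against 43852 of 373985 over all genes with a site. Of the motifs in this window, 9.01% (5.91 to 13.5) were listed in Usp genes and 12.7% over all genes. On whole transcripts, 2.98% and 4.63% were listed. Of the 33 sites in 3′UTRs, 27 (81.8%, 65.6 to 91.4, against 73.2% over all genes) were within 500 nt after the stop codon, and 4 (12.1%, against 11.8%) were more than 1000 nt after it. Sites close to the stop codon had the higher scores: the median was 0.859 within 200 nt and 0.721 farther away, while over all genes the medians were 0.759 and 0.721. m6Aboost uses the sequence around a site and the transcript region as inputs, so score, motif and region are not independent readouts.

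The share of sites in DRACH motifs was close to that of the whole list. In Usp genes 87 of 94 sites (92.6%, 85.4 to 96.3) were in a DRACH motif, against 92.0% of all sites in protein-coding genes. GGACA was the most frequent 5-base context with 17 sites, followed by GGACT with 15, AGACT with 13, GAACT with 9 and GGACC with 8. Over all genes GGACT led with 19.3% and GGACA had 13.2%, while in Usp genes the shares were 16.0% (9.92 to 24.7) and 18.1% (11.6 to 27.1). The 7 sites in AAACT had scores from 0.813 to 0.953, and the 8 in GGACC from 0.509 to 0.798. The 7 sites outside DRACH are shown because they depart from the motif by 1 base.
Usp10 CDS, chr8:119941328-119941348, plus strand, score 0.729: ctggaaagCAACTctaacgca
Usp10 CDS, chr8:119941541-119941561, plus strand, score 0.713: gagttcatGGACGtgcttcct
Usp16 CDS, chr16:87479407-87479427, plus strand, score 0.600: tgatctggGGATTgtgacgcc
Usp19 3′UTR, chr9:108501490-108501510, plus strand, score 0.600: gtgggaaaCAACTctgggctc
Usp4 3′UTR, chr9:108392103-108392123, plus strand, score 0.561: tgtctcatGGATTccaaagag
Usp47 CDS, chr7:112092880-112092900, plus strand, score 0.798: ggtaatgtGGACGatgattgt
Usp47 3′UTR, chr7:112110309-112110329, plus strand, score 0.718: ggtcagatGTACTgtaaagcc
Of these 7 sites, 2 had T in place of C after the predicted m6A, 2 ended in G, 2 began with C, and 1 had T directly before the predicted m6A. Their scores ran from 0.561 to 0.798, and none was among the highest 10.

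In the reading frame, the predicted m6A was at the first codon position in 14 of 61 CDS sites, at the second in 25 and at the third in 22 (23.0%, 41.0% and 36.1%, against 24.4%, 49.0% and 26.6% over all genes). GAC, the codon for aspartate, held 22 of the 25 sites at the second position, where the DRACH motif allows only GAC or AAC. The catalytic domain of these proteases starts with a short stretch, the Cys box, that carries the active cysteine. A strict pattern for it matched 12 members, and a looser one, written after the translated sequences were seen, matched 38 more, which made 50 members with 1 match each, 22 of them with a site. Most cysteine positions thus rest on the looser pattern. Of the 58 CDS sites in members with a match, 15 lay before the cysteine and 43 after it. No site was within 60 residues of the cysteine: the nearest was 73 residues after it, in Usp8, and the nearest before it was 112 residues away, in Usp10. The 15 sites before it came from only 3 genes, with 8 in Usp10, 5 in Usp8 and 2 in Usp38. Over the 17 members with both a match and a CDS site, the stretch up to the cysteine made up 30.4% of the residues and held 25.9% of the sites.

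**Figure D4:**
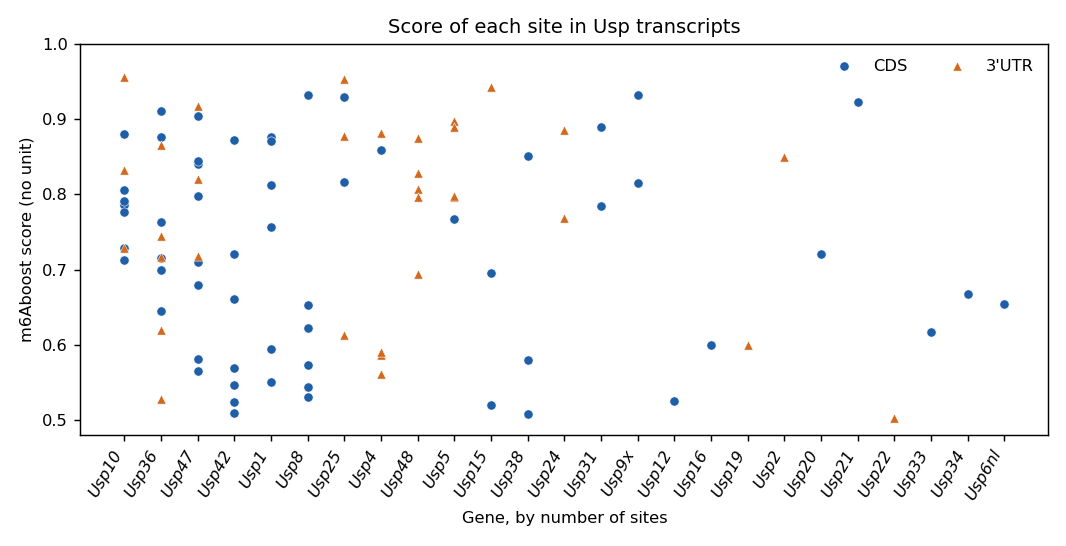
m6Aboost score (no unit) of each of the 94 sites, by gene, with genes ordered by number of sites. Blue circles are CDS sites and orange triangles 3′UTR sites. Scores vary widely within single genes, from 0.528 to 0.911 in Usp36 and from 0.565 to 0.917 in Usp47, and the 10 genes with 1 site run from 0.502 in Usp22 to 0.923 in Usp21.

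Sites were concentrated in few members. The 10 genes with 5 or more sites held 72 of the 94 sites (76.6%), and 10 genes held a single site. The median was 2 sites per Usp gene with a site, against 3 over all genes with a site. Members with a site had a median spliced length of 4707 nt and 96 DRACH motifs, and members without a site 4273 nt and 86 motifs. Over all protein-coding genes the median spliced length was 3088 nt with a site and 2363 nt without, so Usp transcripts were longer in both classes, and the shares of genes with a site were not adjusted for length. Of 2919 DRACH motifs in Usp transcripts with a site, 2.98% (2.42 to 3.66) were listed, against 4.63% over all genes with a site.

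The roles by which the members are described below were assigned by hand, many members have several, and no role was tested against another. They were set with earlier results of these data known, and every member with a site was given one, so that the share with a site was 25 of 44 (56.8%, 42.2 to 70.3) among members with a role. The shares by role below are descriptions to be read against that value, and all of their intervals included it. Of the 9 members placed with the proteasome, free ubiquitin chains, ribosomes and RNA, 5 held a site (55.6%, 26.7 to 81.1, beside 23.1% of all protein-coding genes), with 36 sites in all, 7 of them in Usp42. Usp10 removes ubiquitin from stalled ribosomes and binds the stress granule protein G3BP1. It held 11 sites, of which 8 were in exon 4 (1029 nt) over a span of 543 nt, with scores from 0.713 to 0.880. This exon held 23 DRACH motifs, and 6 of them were listed, beside 2 sites outside DRACH. The other 3 sites of Usp10 were 92, 158 and 176 nt after the stop codon, with scores of 0.833, 0.729 and 0.956, the last being the highest of any Usp site. All 11 sites also lie within Gm20388, a much longer protein-coding gene model on the same strand (chr8:119910841-124345722), so the list alone does not say which of the overlapping transcripts carried them.

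Usp36, the nucleolar protease of ribosome biogenesis, also held 11 sites. There were 3 in exon 14 (669 nt), 3 in exon 16 (543 nt) and 5 in the 3′UTR, 336 to 841 nt after the stop codon. In exons 14 and 16, 3 of 11 and 3 of 10 DRACH motifs were listed. The top score, 0.911, was at residue 814 in exon 16. A pair of 3′UTR sites only 4 nt apart is shown, because the motifs overlap by their shared T.
Usp36 3′UTR, chr11:118261118-118261138, minus strand, score 0.528: cctctgtaTGACTgactatca
Usp36 3′UTR, chr11:118261114-118261134, minus strand, score 0.717: tgtatgacTGACTatcagctg
The upstream A scored 0.528 and the downstream A 0.717.

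Usp42 is the paralogue of Usp36 and deubiquitinates p53, which is not among the roles this group is named for. It was placed here by hand and held 7 sites, all in exon 15 (1479 nt) within 313 nt. Their scores were 0.509, 0.524, 0.546, 0.569, 0.661, 0.721 and 0.872. The 7 listed motifs were 20.0% of the 35 DRACH motifs in the exon, and only the AAACT site at residue 872 scored above 0.8. Usp5, which disassembles free ubiquitin chains, held 4 sites in its 3′UTR at 74, 178, 187 and 235 nt after the stop codon, with scores of 0.897, 0.889, 0.796 and 0.798. Its only CDS site, in a 175-nt exon with a single DRACH motif, scored 0.767. Usp24 held 2 sites, 127 and 259 nt after the stop codon, with scores of 0.885 and 0.769. Usp13, Usp14, Usp37 and the splicing factor Usp39 had none.

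Among members placed with the nucleus, chromatin and DNA damage, 6 of 16 genes held a site (37.5%, 18.5 to 61.4), with 25 sites in all. This interval also included the 23.1% of all protein-coding genes. Usp47, which deubiquitinates DNA polymerase beta, held 11. Of these, 8 were in exon 21 (781 nt), the densest exon of the family with 10.2 sites per kb, where 7 of 32 DRACH motifs were listed. Their scores ran from 0.565 to 0.904, with the highest in an AAACT motif at residue 879. The other 3 sites were 80, 119 and 202 nt after the stop codon and scored 0.821, 0.917 and 0.718.

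Usp1, which with WDR48 deubiquitinates FANCD2 and PCNA, held 6 sites, all in the CDS. The 3 sites in exon 6 (689 nt) scored 0.813, 0.594 and 0.551, and the 3 in the last exon, 231 to 496 nt before the stop codon, scored 0.876, 0.871 and 0.757. The scores of both groups overlapped, since 1 site of exon 6 scored above the lowest of the last exon. Usp48 held 5 sites, all in the 3′UTR and in 2 groups: 97 and 142 nt after the stop codon (0.875 and 0.828), and 1168, 1200 and 1208 nt after it (0.807, 0.694 and 0.796). The second group made up 3 of the 4 Usp sites more than 1000 nt beyond a stop codon, and the other was the site of Usp22, the SAGA complex deubiquitinase, at 1695 nt with a score of 0.502. The histone H2A deubiquitinases Usp16 and Usp21 held 1 CDS site each, at 0.600 and 0.923. Usp7, which deubiquitinates MDM2 and p53, had no listed site in a transcript with 97 DRACH motifs. Usp3, Usp11, Usp26, Usp27x, Usp28, Usp29, Usp44, Usp49 and Usp51 had none either.

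Of the 8 members grouped by roles in cytokine, interferon and innate immune signalling, 7 held a site (87.5%, 52.9 to 97.8, beside 56.8% of members with a role and 23.1% of all protein-coding genes), with 20 sites in all. Usp25, which acts on TRAF proteins, held 5: a CDS site at residue 688 (0.817), and 4 in the last exon, from 61 nt before the stop codon (0.929) to 12 nt (0.877), 34 nt (0.953) and 109 nt (0.613) after it. The 4 sites of the last exon thus spanned 170 nt around the stop codon, and 2 of them were among the highest 10 of the family. Usp4 held its site 8 nt before the stop codon (0.859) and 4 in the 3′UTR, 278 to 354 nt after the stop codon, at 0.561, 0.586, 0.590 and 0.882. Usp15, the paralogue of Usp4 that acts in TGF-beta signalling, held 3 sites around its stop codon: 143 and 129 nt before it (0.520 and 0.696) and 29 nt after it (0.943).

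Usp38 held, beside the site in codon 2, sites at residues 83 (0.508) and 596 (0.851). Usp31 held 2, 376 and 257 nt before the stop codon, at 0.785 and 0.889. Usp2 held 1 in the 3′UTR (0.850) and the large protein Usp34 1 in the CDS (0.667). Usp18, the protease of the interferon-induced modifier ISG15, had no site on a transcript of 1771 nt with 45 DRACH motifs. Usp21 held 1 site on 2185 nt with 38 motifs. The cells were unstimulated, and whether this or transcript length bears on Usp18 was not tested.

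Of the 9 members placed at membranes and organelles, 6 held a site (66.7%, 35.4 to 87.9), with 12 sites in all. Over all protein-coding genes the share was 23.1%. Usp8, which deubiquitinates receptors at endosomes, held 6, spread over 4 internal exons and scored 0.544, 0.622, 0.932, 0.653, 0.573 and 0.530 in transcript order. Its highest site and the next were 8 nt apart in exon 11 (558 nt). The 3 sites outside exon 11 were in exons of 163, 224 and 211 nt. Usp9x, an X-linked protease of endosomes and cell adhesion, held 2 sites 42 nt apart in exon 35 (754 nt), at 0.932 and 0.815. Usp19, Usp20, Usp33 and Usp6nl held 1 each, at 0.600, 0.721, 0.617 and 0.654. The mitochondrial Usp30, Usp32 and the Y-linked Usp9y had none. The remaining pair, Usp12 and Usp46, held the 1 site of Usp12 described above.

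The members without a set role (Usp35, Usp40, Usp43, Usp45, Usp50, Usp53, Usp54 and 5 Usp17-like genes) had no site, which follows from the way roles were assigned and is given only to account for them. The Usp17-like genes are close copies of one another, and reads that fit several copies cannot be given to 1 of them, so their lack of sites is uncertain.

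Paralogues were compared by aligning their translated CDS. Usp38 and Usp35 were 49.7% identical over aligned residues, and residue 2 of Usp35 lies in the same GGACA motif as the listed site of Usp38, but Usp35 had no site. Usp9x and Usp9y were 83.5% identical. The GGACA motif of the Usp9x site at residue 1878 is present in Usp9y, whereas the AGACT motif at residue 1864 reads CGACT there, which is not DRACH. Usp12 and Usp46 were 88.3% identical, yet the last aligned codon of Usp46 encodes glutamate and its context, AGAAT, holds no DRACH motif. Usp4 and Usp15 were 60.4% identical. The codon of Usp15 aligned to the Usp4 site reads TGACA, a DRACH motif without a listed site, and the nearest listed CDS site of Usp15 was 30 residues away. Usp36 and Usp42 were 40.9% identical and both carried runs of CDS sites. Of the 6 in Usp36, those at residues 762, 807 and 814 aligned within 9, 2 and 2 residues of a Usp42 site, and those at residues 572, 600 and 640 were 278, 224 and 170 residues from the nearest. No listed motif of the 1 gene was aligned base for base with a listed motif of the other.

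A hand-made list of 38 other deubiquitinases and related proteases, made with earlier results of these data known, was set beside the Usp genes. It holds 3 genes with a USP fold but another name (Pan2, Uspl1 and Cyld), of which Uspl1 acts on SUMO, and these 3 held 9 of its 64 sites. Of the 38 genes, 16 held a site (42.1%, 27.9 to 57.8, beside 23.1% of all protein-coding genes), with 64 sites. This share was close to the 44.6% of the Usp genes. The OTU family, the most numerous of them, had 8 of 15 genes with a site (53.3%, 30.1 to 75.2, beside 23.1% of all protein-coding genes). Among these were Otud7b (10 sites, all in the CDS), Vcpip1 (8, all in the CDS) and Otulin (6). Bap1 held 5 sites in its 3′UTR, and Uspl1, a SUMO protease with a USP fold, 8 in the CDS. Tnfaip3 and Cyld, negative regulators of NF-kB signalling, held none. The CDS share of these sites was 70.3% (58.2 to 80.1), with 29.7% (19.9 to 41.8) within 200 nt of the stop codon. Both intervals overlapped those of the Usp sites, unlike the interval of the share in internal exons. The last exon held 55.6% (41.2 to 69.1) of the CDS sites of this list, against 18.0% (10.4 to 29.5) for Usp. Exons of at least 400 nt held 7 of its 14 internal CDS sites (50.0%, 26.8 to 73.2), against 89.6% (77.8 to 95.5) for Usp. In these shares the intervals did not overlap either, and no difference was tested.

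Of 16 partners and substrates of Usp proteins, picked by hand, 10 held a site (62.5%, 38.6 to 81.5, beside 23.1% of all protein-coding genes), with 51 sites in all. As with the other lists, the genes were chosen with earlier results of these data known, so the share is a description only. Ifnar2, the interferon receptor chain that binds USP18, held 11, Atxn7l3 of the Usp22 module 8, the Usp10 partner G3bp1 7, Mdm2 7, Wdr48 4 and Isg15 2. The Usp8 partners Stam and Stam2 held none. Of 10 macrophage markers, 5 held a site (Csf1r, Spi1, Lyz2, Cd14 and Fcgr1), which is 50.0% (23.7 to 76.3) beside 23.1% of all protein-coding genes. Of 5 markers of other cell types 0 did (0 to 43.4%), and the intervals of both lists overlapped. Adgre1, Cd68, Itgam, Mrc1 and Mertk held none, and a list of sites cannot say whether they were expressed.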

How the data were processed

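The authors mapped miCLIP2 reads of 3 replicates with STAR 2.7.3a to GRCm38.p6, removed duplicates with UMI-tools 1.0.0, separated off the reads carrying C-to-T transitions, and ran the peak caller PureCLIP per replicate (versions from the submitters' processing notes, which also name SAMtools 1.9 and bedtools 2.27.1). Peaks found in at least 2 replicates were kept, m6Aboost was run on those at A, and the positions with a score above 0.5 were deposited as 1 pooled list. The score column was the only measurement used. Depth per site is unknown.

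Sites were given to each gene whose span held them on the same strand (GENCODE M21, 55450 genes; the study used M23) and placed on the transcript with the longest CDS. Positions are 1-based. Shares carry 95% Wilson intervals beside all protein-coding genes. No test was made, since the list is pooled. Paralogues were aligned from the CDS translated from the genome, and the Cys box was searched there. By plan, the 10 genes with most sites and the 10 highest scores were described site by site. Sites of other members, among them Usp12, Usp24, Usp31 and Usp38, were given for completeness. Members and lists were chosen with earlier results of these data known. Placement was tested on simulated transcripts. Python 3.11.15, NumPy 2.4.6, pysam 0.24.0, Biopython 1.88 and matplotlib 3.10.9 were used. Alternatives were other minimum scores, transcripts, windows and motifs, collapsed neighbours, sites in no other gene, and leaving out Usp6nl.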

Additional observations from a re-analysis of the deposited data

How the results depend on the processing

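Of 59 recomputed values, 48 stayed within a margin and 11 moved, the margin being the 95% Wilson interval of the main value for a share and a factor of 1.5 for a count or density. A minimum score of 0.9 kept 8 genes and 10 sites (0.360 per 10 kb of spliced transcript, against 3.39), of which 100% were in DRACH motifs, 50.0% (5 of 10, against 22.3%) within 200 nt of the stop codon and 20.0% (2 of 10) within 100 nt of another site, against 60.6% on the whole list, where all genes had 59.9%. A minimum of 0.7 kept 18 genes and 59 sites (2.13 per 10 kb). The share in the stricter motif RRACH was 84.0%, against 92.6% for DRACH, and the share near the stop codon was 11.7% in a window of 100 nt and 36.2% in one of 400 nt, fewer or more bases being counted. The share in the CDS ran from 57.7% to 65.6% over the alternatives. The lowest value counts the 8 Usp36 sites of a noncoding transcript in its total. Taking only sites that lie in no other gene kept 24 genes and 83 sites, Usp10 being lost. No paired analysis was possible because the file merges all replicates, and for that reason none could be left out. Without counts, a member without a site may have lacked reads.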
